A study of Mus musculus with 4 samples.

Results

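Genes of hepatic glucose uptake, glycolysis and fructose use were compared between livers of fasted and refed mice on 4 two-colour arrays. The 8 genes were Slc2a2, Gckr, Pfkl, Pfkfb1, Pfkfb3, Pklr, Khk and Mlxipl, taken by their gene name on the array, which gave 9 probes of the 39429 probes and 8 of the 31709 distinct names measured. Total RNA came from individual livers of male C57BL/6J mice, labelled C57/Bl6 in the sample annotation, aged 8 to 12 weeks. One group had no food for 24 h (fasted, 4 livers), and the other had no food for 24 h and then food for 2 h (refed, 4 livers), so that the fast itself was common to both groups. On every array a fasted liver was paired at random with a refed one, the fasted liver being labelled with Cy5 (red) on replicates 1 and 2 and with Cy3 (green) on replicates 3 and 4. The purpose was to find which liver transcripts differ between the fasted and the fed state. All ratios below are log2 of fasted over refed liver with the dye orientation turned, so that a negative value is a lower level in the fasted liver, and n is 4 arrays unless stated.

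Hepatocytes take up glucose through a transporter that works in both directions, and glycolysis then breaks it down to pyruvate. The pace of the pathway is set at the phosphofructokinase step and at the pyruvate kinase step, where hormones act through phosphorylation of enzymes and through fructose 2,6-bisphosphate, a signal metabolite made and removed by the bifunctional PFKFB enzymes. Dietary carbohydrate also acts on transcription through ChREBP, the factor encoded by Mlxipl, which binds DNA together with Mlx.

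Of the 8 genes, only Pfkfb3 was called, with a lower level in the fasted than in the refed liver. To be called, a probe needed a Benjamini-Hochberg adjusted p below 0.10 in limma together with a change of 1.5-fold or more. All 8 genes had a probe well above background, and 1 of these 8 probes was called (12.5%), beside 3.78% of all 19719 probes tested in either direction. Calls of a lower level made up 2.08% of all probes tested and calls of a higher level 1.70%. One call among 8 probes is too few for a statement on the genes as a group. The median ratio of the 8 probes was -0.02, beside -0.001 for all probes tested. In bulk liver RNA, fewer cells of a type and less RNA per cell cannot be told apart. The livers were labelled as biological replicates, and the 4 arrays limit the precision of every value.

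**Figure D1:**
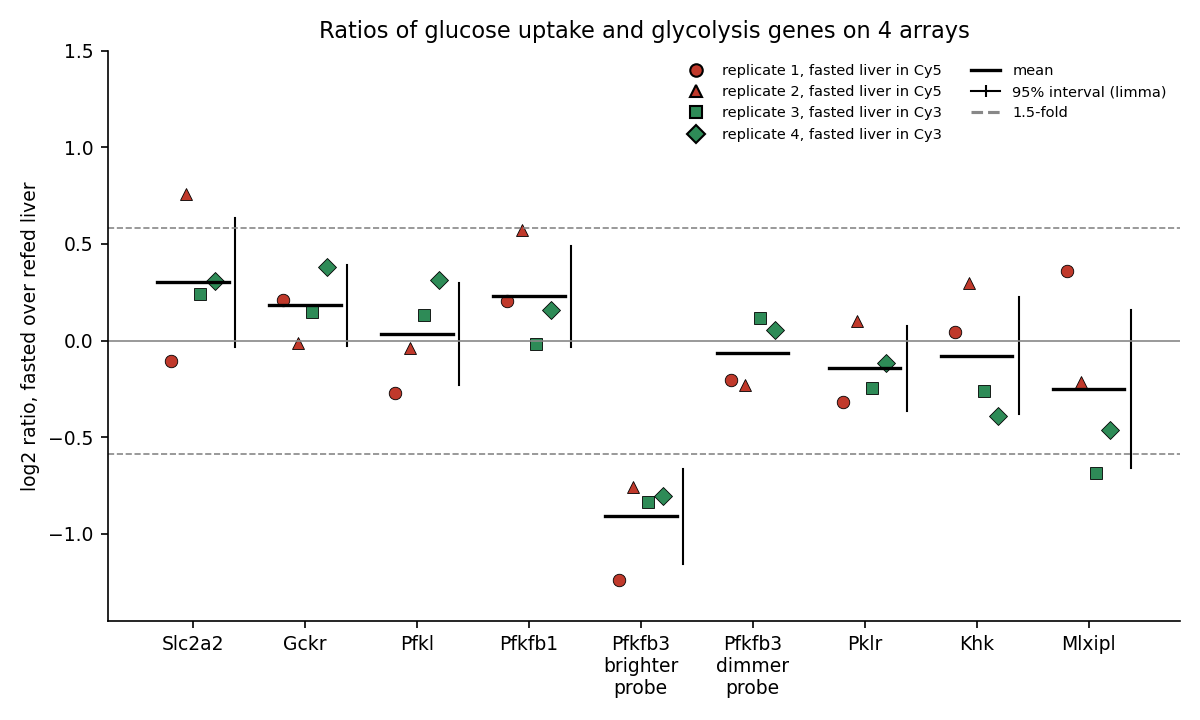
Log2 ratio of fasted over refed liver (y axis) for the 9 probes of the 8 genes (x axis), with 1 point per array, the mean as a thick bar and the 95% interval from limma as a thin line; dashed lines mark 1.5-fold and colours give the dye of the fasted liver. Only the brighter Pfkfb3 probe lies below the lower dashed line on all 4 arrays, between -1.24 and -0.76, and its dimmer probe, which was not tested, has no interval.

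Pfkfb3 encodes one of the bifunctional enzymes of fructose 2,6-bisphosphate, an isoform in which the kinase activity that makes this metabolite far outweighs the phosphatase activity. The array held 2 probes for it, and their sequences are shown because they gave different results. In the mm9 build used by the scanner files, the brighter probe lies on the minus strand at chr2:11393453-11393512 and holds a polyadenylation signal near its 3′ end, given in capitals in its last 30 bases below. The dimmer probe aligns in parts over 1414 bases at chr2:11404189-11405602 and so crosses an exon junction; its 60 bases are given whole.
Pfkfb3 brighter probe, last 30 bases: gcaagaacAATAAAaacctggttgagatac
Pfkfb3 dimmer probe: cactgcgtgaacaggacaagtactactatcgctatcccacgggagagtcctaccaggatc

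On the brighter probe, the Pfkfb3 ratio was -1.24 on replicate 1, -0.76 on replicate 2, -0.84 on replicate 3 and -0.81 on replicate 4. It was thus lower in the fasted liver on all 4 arrays and past 1.5-fold on each of them. The mean was -0.91 ± 0.22 (SD, n = 4), a 1.88-fold lower level with a 95% interval of 1.59 to 2.23, and the adjusted p of limma was 0.0106. The probe ranked 144 by p among the 19719 tested. The normalized log2 level of Pfkfb3 was 7.89, 8.33, 7.77 and 7.36 in the fasted livers of replicates 1 to 4. In the refed livers of the same arrays, the log2 level of Pfkfb3 was 9.13, 9.09, 8.61 and 8.16. The refed liver of replicate 4 was lower than the fasted liver of replicate 2, so the 2 groups of livers overlapped although each refed liver exceeded the fasted liver beside it. Raw signals of this probe were 117 to 500.5 over local backgrounds of 20 to 37, and none of its spots was flagged.

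The dimmer Pfkfb3 probe was not well above background in either channel on any array, with raw signals of 27 to 68 over local backgrounds of 20 to 34. Its ratios were -0.21, -0.23, 0.12 and 0.05 on replicates 1 to 4, which split by sign between the dye orientations. It was not tested, so the lower Pfkfb3 level in the fasted liver rests on 1 probe at the 3′ end of the transcript.

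**Figure D2:**
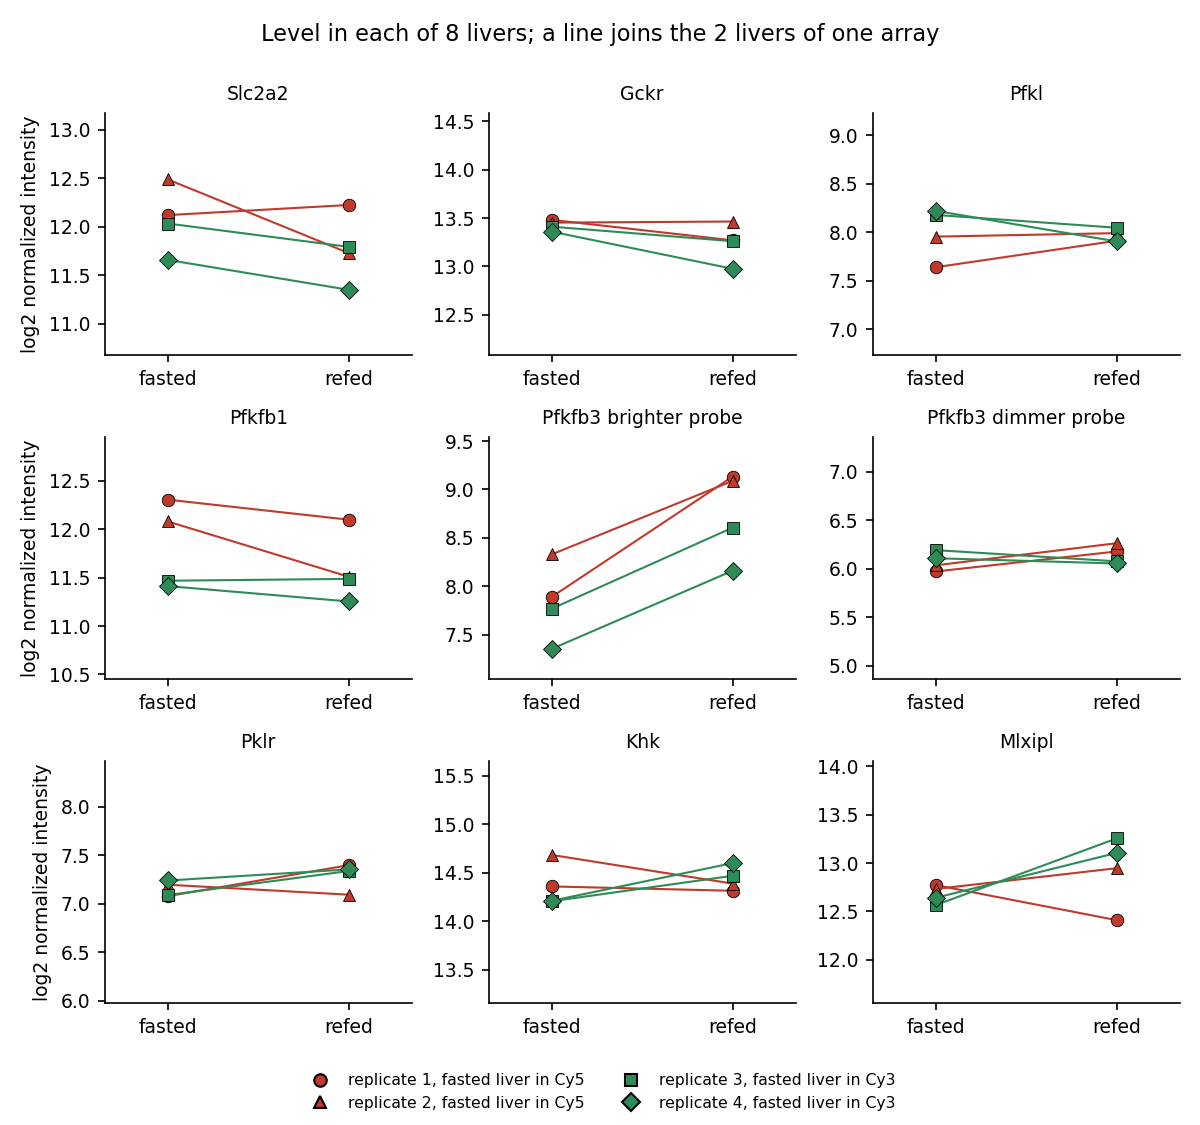
Normalized log2 intensity (y axis) of each probe in the 4 fasted and 4 refed livers (x axis), with a line joining both livers of an array; each panel spans the same range but has its own origin, since levels of different probes cannot be compared. For the brighter Pfkfb3 probe all 4 lines climb from fasted to refed, from 7.36 to 8.33 in the fasted livers and 8.16 to 9.13 in the refed livers, while the lines of the other genes run both ways or nearly level.

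The call of Pfkfb3 held with a dye term in the model, where the adjusted p was 0.00323, and the dye effect itself was -0.09. Leaving out 1 array at a time kept the call, with means from -0.96 to -0.80 and adjusted p from 0.0145 to 0.0515. Among 20 alternatives it was lost only where normexp background correction was fitted on all spots, including a few with extreme local background, at a ratio of -0.52 and an adjusted p of 0.559. That fit called 20 of 19735 probes in all. Ratios of dim probes were pulled towards 0 by the offset of 50 added to each signal, and with plain background subtraction the Pfkfb3 ratio was -1.12.

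Of the 4 other genes for enzymes of fructose 2,6-bisphosphate, Tigar was called lower and Pfkfb1, Pfkfb2 and Pfkfb4 were not called. Pfkfb1, the isoform of adult liver that hormones switch between kinase and phosphatase by phosphorylation, was measured by a probe at chrX:147078320-147078379 on mm9. Its probe had ratios of 0.21, 0.57, -0.02 and 0.16 on replicates 1 to 4. Thus 3 of 4 arrays were above 0, and the fasted livers at 11.41 to 12.30 overlapped the refed livers at 11.25 to 12.10 in log2 level. The mean ratio of Pfkfb1 was 0.23 ± 0.25 (SD, n = 4) with a 95% interval of -0.03 to 0.49 and an adjusted p of 0.291 in limma. It was 0.12 without replicate 2 and 0.09 with median centring in place of loess. Its ratio exceeded that of Pfkfb3 on 4 of 4 arrays, by 1.14 ± 0.30 (SD, n = 4) on the log2 scale. The corresponding difference from Pfkfb3 was 1.29 ± 0.58 (SD) for Pfkfb2 and 0.84 ± 0.27 (SD) for Pfkfb4, again on 4 of 4 arrays. Of 2 Pfkfb4 probes, 1 passed the background filter, and it failed where both conditions had to be above background. Its ratio was thus close to the floor, where the offset pulls ratios towards 0. With 4 arrays, the exact two-sided sign-flip test cannot give a p below 0.125, which all 3 differences reached, and the 3 adjusted values were also 0.125. Pfkfb3 was the member called lower in these same data, at -0.76 or below on every array. A gene near 0 thus lies above it on every array by that choice, so the comparison is a description only. Tigar, whose product removes fructose 2,6-bisphosphate, was lower in the fasted liver, with a mean of -0.83 and a limma adjusted p of 0.0163. Its ratios were -0.49, -0.80, -0.91 and -1.14 on replicates 1 to 4, and its second probe was called lower as well at -0.72.

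Sequences before both Pfkfb3 start sites are shown because Pfkfb3 was the gene that changed. They are the 250 bases before the start site on the minus strand of the GRCm38.p6 assembly, from RefSeq, and capitals mark matches to the short CRE TGACG, which is part of the site bound by CREB, and to the E-box CACGTG, the core bound by basic helix-loop-helix factors. Both motifs were searched on both strands.
Pfkfb3 distal start, chr2:11553930-11554179: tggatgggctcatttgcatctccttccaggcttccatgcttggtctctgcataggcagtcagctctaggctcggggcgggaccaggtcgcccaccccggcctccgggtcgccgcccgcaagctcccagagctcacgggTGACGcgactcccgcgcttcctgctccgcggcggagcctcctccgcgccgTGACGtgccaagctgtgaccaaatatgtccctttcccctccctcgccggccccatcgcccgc
Pfkfb3 proximal start, chr2:11502091-11502340: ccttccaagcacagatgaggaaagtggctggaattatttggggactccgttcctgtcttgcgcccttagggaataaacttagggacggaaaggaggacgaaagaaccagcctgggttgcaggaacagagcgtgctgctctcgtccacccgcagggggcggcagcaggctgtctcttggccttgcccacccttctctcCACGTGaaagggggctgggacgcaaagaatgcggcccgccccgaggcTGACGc

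The distal start held short CREs from -112 and from -62 relative to the start site. The proximal start held an E-box from -53 and a short CRE from -6. A short CRE occurred in 20.8% of the 32851 promoter windows of the table, each running from 250 bases before to 50 bases after a start, and an E-box in 7.15%. Over the 14 windows of the 8 genes, 3 held a short CRE, of Pfkfb3 at both starts and of Khk, and 3 held an E-box, of Pfkfb3, Khk and Mlxipl. The full CRE TGACGTCA, which contains the short CRE, was in none of the 14 and in 1.79% of all windows. A match of letters is a description of the sequence and not a bound site.

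Slc2a2 and Gckr had ratios mostly above 0 that did not pass the test. Slc2a2 encodes GLUT2, the glucose transporter of the hepatocyte membrane, and its probe lies at chr3:28627016-28627075 on mm9. Its ratios were -0.10, 0.76, 0.24 and 0.31 on replicates 1 to 4. Replicate 2 alone passed 1.5-fold, replicate 1 ran the other way, and the fasted livers at 11.66 to 12.49 overlapped the refed livers at 11.35 to 12.22 in log2 level. The mean Slc2a2 ratio was 0.30 ± 0.35 (SD, n = 4), with a 95% interval of -0.03 to 0.64 and an adjusted p of 0.282 in limma. As a fold, the interval ran from 0.976 to 1.55, so a rise of 1.5-fold in the fasted liver lay inside it.

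Gckr encodes a regulatory protein of hepatocytes that responds to phosphate esters of fructose, with its probe at chr5:31629583-31629642 on mm9. The ratio of Gckr was 0.21, -0.01, 0.15 and 0.38 on replicates 1 to 4, with a mean of 0.18 ± 0.16 (SD, n = 4). The 95% interval was -0.03 to 0.39 and the adjusted p of limma 0.294. Fasted livers at 13.36 to 13.48 and refed livers at 12.98 to 13.46 overlapped in log2 level, with the refed liver of replicate 4 the lowest of the 8.

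Markers of pancreas moved with 1 array and are given here because Slc2a2 is also transcribed in pancreatic islet cells. In the refed liver of replicate 3, 12 of 12 acinar markers and 6 of 9 islet markers were well above background, beside 4 to 5 acinar and 1 to 2 islet markers in the other refed livers. The fasted liver of that array had 9 acinar and 3 islet markers above background. The summed log2 level of the islet list was 9.33 to 11.08 in the refed and 9.38 to 9.62 in the fasted livers, and 3 islet markers were above background nowhere. On replicate 3 the acinar markers had a median ratio of -3.25, while the other arrays gave values from -0.03 to 0.03. On that array the ratio of Slc2a2 was 0.24 and that of Gckr 0.15, both inside the range of the other 3 arrays. Without replicate 3, the mean was 0.32 for Slc2a2 and 0.19 for Gckr. Leaving out the other arrays moved Slc2a2 further, to 0.15 without replicate 2 and 0.44 without replicate 1, and Gckr to 0.12 without replicate 4. With median centring in place of loess, Slc2a2 was 0.16 and Gckr 0.03. The part of pancreas RNA in these ratios was not tested. All 8 hepatocyte markers were above background in each of the 8 livers, and none of the 6 skeletal muscle markers was.

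The genes of the glycolytic steps themselves had means near 0. Pfkl encodes the liver form of phosphofructokinase, which commits the sugar to glycolysis, and its probe lies on the minus strand at chr10:77450926-77450985 on mm9. Its ratios were -0.27, -0.04, 0.13 and 0.32 on replicates 1 to 4, below 0 with the fasted liver in Cy5 and above 0 with it in Cy3. The Pfkl mean of 0.03 ± 0.25 (SD, n = 4) had a 95% interval of -0.23 to 0.30 and an adjusted p of 0.903 in limma. In log2 level, the fasted livers at 7.64 to 8.22 enclosed the refed livers at 7.91 to 8.05. Raw signals of the Pfkl probe were 100 to 393.5.

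Pklr encodes the pyruvate kinase of liver, and in another form that of red cells, each from a start site of its own. The ratios of Pklr were -0.32, 0.10, -0.25 and -0.11 on replicates 1 to 4, so that 3 of 4 arrays were below 0. The mean was -0.14 ± 0.19 (SD, n = 4) with a 95% interval of -0.37 to 0.08 and an adjusted p of 0.436 in limma. It was -0.24 with background subtraction, -0.23 without replicate 2 and -0.09 without replicate 1. Since Pklr has a red cell form, blood markers are given beside it. Of 6 blood markers on the array, 4 were above background in all 8 livers, and the log2 of the summed level of the 6 was 14.25 to 16.46 in the fasted and 13.66 to 14.75 in the refed livers. The ratio of Hba-a1, an alpha globin gene, was 2.45 and 2.48 on replicates 1 and 3, the arrays with the lowest Pklr ratios, beside -0.26 and 0.34 on replicates 2 and 4. It was picked after its values were seen, and the median ratio of the 6 markers was 0.11, -0.25, 0.71 and 0.12 on replicates 1 to 4, highest on replicate 3. The part of blood in the Pklr ratio was not tested. The fasted livers at 7.08 to 7.24 and the refed livers at 7.09 to 7.40 overlapped in log2 level. Raw signals of the Pklr probe were only 65 to 191 over local backgrounds of 19 to 35, so its ratio was among those that the offset pulled towards 0. The probe crosses an exon junction over 519 bases at chr3:88948907-88949425 on mm9, and its 60 bases are given since its dimness limits what the array can say of this gene.
Pklr probe: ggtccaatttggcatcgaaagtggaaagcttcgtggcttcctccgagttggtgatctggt

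The sequence before the downstream Pklr start, that of the liver form, is shown because it was the one member window with a match to the paired site of ChREBP and Mlx. Capitals mark that pair, CACGNG and CNCGTG with 5 bases between them, and the TATA box TATAAA in the 250 bases before the start on the plus strand of GRCm38.p6.
Pklr downstream start, chr3:89136373-89136622: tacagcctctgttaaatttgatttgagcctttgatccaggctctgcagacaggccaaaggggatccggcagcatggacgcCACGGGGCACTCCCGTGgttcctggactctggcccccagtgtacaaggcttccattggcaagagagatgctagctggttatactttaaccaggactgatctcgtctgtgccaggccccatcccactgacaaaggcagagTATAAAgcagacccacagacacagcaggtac

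The pair lay from -170 to -154 and the TATA box from -31 to -26 relative to this start. Such a pair was found in 15 of the 32851 promoter windows (0.0457%) and in 1 of the 14 windows of the 8 genes. A TATA box stood in 13.6% of all windows and in 2 of the 14, of Pklr and Pfkfb1.

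The ratios of Khk and Mlxipl differed most between the arrays of one dye orientation and those of the other. Khk encodes ketohexokinase, which phosphorylates fructose and so brings it into the pathway below phosphofructokinase, and its probe lies at chr5:31233555-31233614 on mm9. Its ratios were 0.04 and 0.30 on replicates 1 and 2 and -0.26 and -0.39 on replicates 3 and 4. The sign thus differed between the orientations, which also hold different livers, and the dye term of 0.25 had an adjusted p of 0.0890 in limma, the only one of the 8 below 0.10. The mean Khk ratio over both orientations was -0.08 ± 0.31 (SD, n = 4), with a 95% interval of -0.38 to 0.22 and an adjusted p of 0.793. In the model with a dye term its adjusted p was 0.491, and with median centring in place of loess its mean was -0.23. Fasted livers at 14.21 to 14.68 and refed livers at 14.31 to 14.60 overlapped in log2 level.

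Mlxipl encodes ChREBP, the carbohydrate-responsive transcription factor, and was measured at chr5:135613705-135613764 on mm9. Its log2 level was 12.77, 12.73, 12.57 and 12.64 in the fasted livers of replicates 1 to 4 and 12.41, 12.95, 13.25 and 13.10 in the refed livers beside them. The 4 fasted livers lay close together and the refed livers were spread on both sides of them, with the refed liver of replicate 1 the lowest of all. The ratios of Mlxipl were 0.36, -0.21, -0.69 and -0.46, a mean of -0.25 ± 0.45 (SD, n = 4), the widest spread among the 8 genes. Its 95% interval was -0.66 to 0.16 and its adjusted p 0.464 in limma. As a fold, the interval reached a 1.58-fold lower level in the fasted liver, so a fall of 1.5-fold lay inside it. The mean was 0.07 with the fasted liver in Cy5 and -0.57 with it in Cy3, and the dye term of 0.32 had an adjusted p of 0.120. The mean of Mlxipl depended on single arrays: it was -0.45 without replicate 1 (limma, adjusted p = 0.101), -0.11 without replicate 3 (adjusted p = 0.854) and -0.18 without replicate 4 (adjusted p = 0.731). With median centring in place of loess it was -0.40. Replicate 3, with the lowest Mlxipl ratio and the highest refed level, is also the array whose refed liver carried the pancreas markers, and their part in the Mlxipl ratio was not tested.

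**Figure D3:**
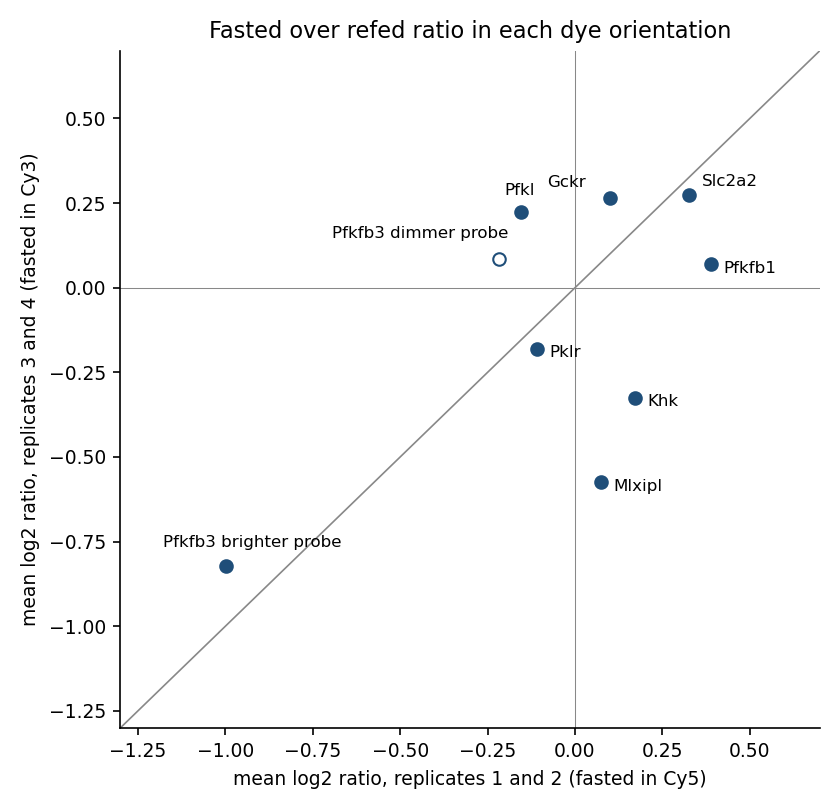
Mean log2 ratio of fasted over refed liver on replicates 1 and 2, with the fasted liver in Cy5 (x axis), and on replicates 3 and 4, with it in Cy3 (y axis), for the 9 probes; the diagonal marks equal ratios and the open symbol is the untested Pfkfb3 probe. The brighter Pfkfb3 probe lies near the diagonal at -0.999 and -0.82, while Khk at 0.17 and -0.33 and Mlxipl at 0.07 and -0.57 lie below it.

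Dye effects were frequent on these arrays and were not particular to Khk. They reached an adjusted p under 0.10 on 2912 of the 19719 probes (14.8%). Arrays of the same orientation correlated at 0.66 to 0.75 over all probes tested and arrays of opposite orientation at 0.22 to 0.40. Since each orientation holds other livers, the dye and the livers cannot be told apart for a single gene. For 7 of the 8 genes no call was made, with or without the dye term, and the 95% interval of each of the 7 held 0. For 5 of them, Gckr, Pfkl, Pfkfb1, Pklr and Khk, the interval lay within 1.5-fold in both directions, and for Slc2a2 and Mlxipl it did not. Raw signals of Pklr (65 to 191) and Pfkl (100 to 393.5) were low, where the offset of 50 pulls ratios towards 0. The intervals of Pklr and Pfkl therefore do not bound the change as those of brighter probes do.

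The genes whose 4 ratios were nearest to those of Pfkfb3 were taken by root mean square difference over the 4 arrays among 16045 other named genes or probes. Tuba4a, an alpha tubulin, was nearest at 0.125, with ratios of -1.06, -0.84, -0.89 and -0.95. Zbtb40, a zinc finger gene, followed at 0.156 with ratios of -1.17, -1.03, -0.94 and -0.73, and a probe without a gene name stood between them at 0.150. Likeness over 4 arrays is a description of these values and no more.

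In 9 lists of related genes, which also take in ChREBP targets and the opposing gluconeogenic enzymes, 65 of 75 genes were measured, of which 7 were called higher (10.8%) and 2 lower (3.08%) in the fasted liver. Over all 16053 distinct names tested, each by its brightest probe and some being probes without a gene name, 1.82% were called higher and 2.13% lower. The median of the 65 genes was 0.02, with ratios from -0.83 to 3.60. The list counts changed when 1 array was left out: 3 higher and 1 lower without replicate 3, 3 and 4 without replicate 2. They were 6 higher and 1 lower without replicate 4, and 6 and 2 without replicate 1. Counts over all probes, 335 higher and 410 lower, changed too. They were 208 and 256 without replicate 3, 265 and 291 without replicate 2, 292 and 330 without replicate 4, and 413 and 525 without replicate 1.

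**Figure D4:**
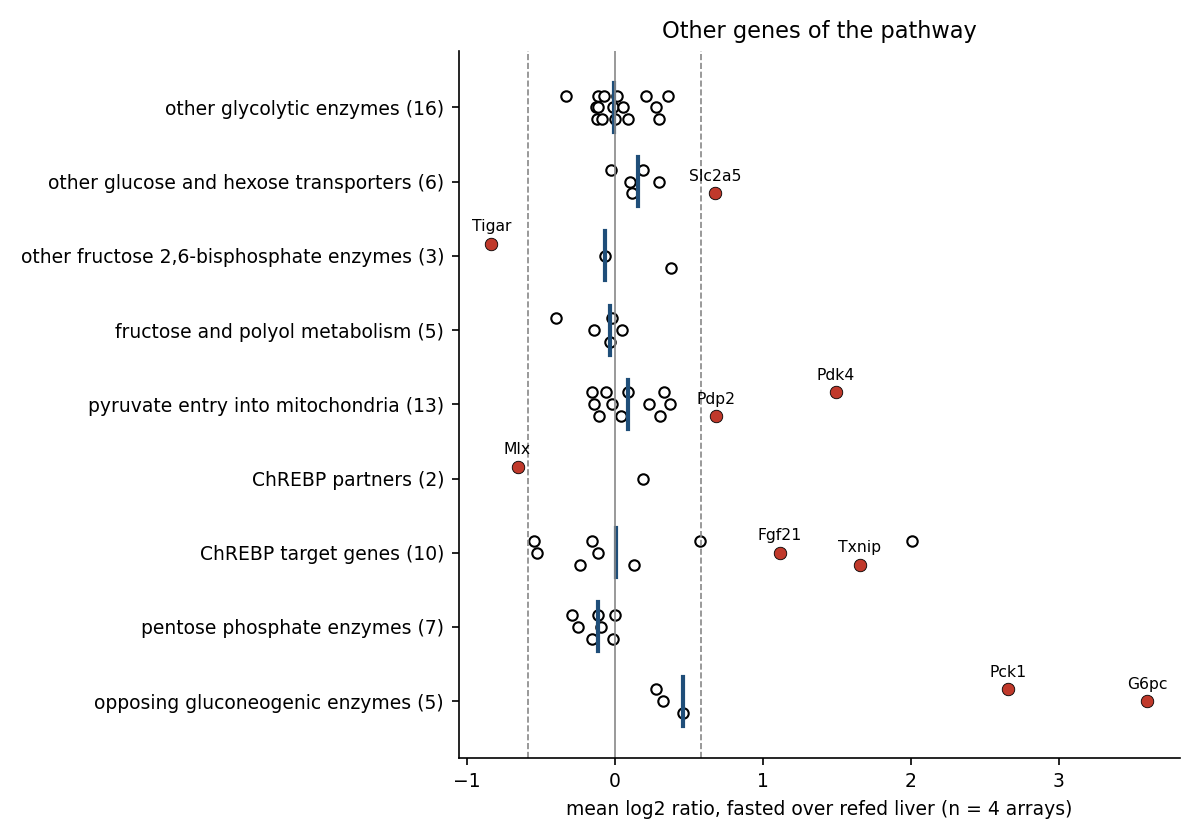
Mean log2 ratio of fasted over refed liver over 4 arrays (x axis) for the measured genes of 9 lists of related genes (y axis, with the number measured), red where called and open otherwise; the vertical bars are medians of lists of 3 or more genes and dashed lines mark 1.5-fold. The 16 other glycolytic enzymes lie between -0.33 and 0.36, while Pck1 at 2.66 and G6pc at 3.60 lie farthest to the right.

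None of the 16 measured enzymes of the remaining glycolytic steps was called. Their ratios ran from -0.33 to 0.36 with a median of -0.005, and the largest, of Ldha, the muscle-type subunit of lactate dehydrogenase, had an adjusted p of 0.286 in limma. That median was -0.14 with median centring in place of loess and -0.09 without replicate 2. Hk2, Pfkp, Eno2 and Pgam2 did not pass the background filter and were not tested. None of the 7 pentose phosphate enzymes was called either, with Rpia the farthest from 0 at -0.29. Rpe was at -0.25 and below 0 on all 4 arrays with an adjusted p of 0.0896 in limma, but was under 1.5-fold. Among 5 genes of fructose and polyol metabolism none was called; Glyctk, which phosphorylates glycerate in fructose breakdown, was at -0.40 with an adjusted p of 0.0376 but under 1.5-fold.

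Of 6 other hexose transporters, Slc2a5, which encodes the fructose transporter GLUT5, was called higher, with a mean of 0.68 (limma, adjusted p = 0.0947). The ratios of Slc2a5 were 0.63, 1.23, 0.84 and 0.01 on replicates 1 to 4, so replicate 4 hardly differed from 0. Among 13 genes of pyruvate entry into mitochondria, Pdk4, a kinase that shuts pyruvate dehydrogenase, was higher at 1.49 with an adjusted p of 0.0837. Pdp2, a phosphatase that opens it, was higher as well at 0.69 with an adjusted p of 0.0716, on the 1 of its 2 probes that passed the filter. Pdp1, another such phosphatase, was at -0.06 and was not called (limma, adjusted p = 0.701). The arrays differed widely for Pdk4 and Pdp2. Pdk4 ratios were 0.54 and 0.60 on replicates 1 and 2 and 1.98 and 2.86 on replicates 3 and 4, and those of Pdp2 were 0.07, 0.63, 1.06 and 0.98 on replicates 1 to 4.

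Mlx, the partner of ChREBP on DNA, was lower in the fasted liver. Its ratios were -0.35, -0.46, -0.78 and -1.03 on replicates 1 to 4, below 0 on all 4 arrays, with a mean of -0.66 and an adjusted p of 0.0376 in limma. Mlxip, the paralogue of Mlxipl, had a mean of 0.19 and an adjusted p of 0.189. Of 10 genes known as ChREBP targets, 2 were called higher and none lower. Txnip, which encodes an inhibitor of glucose uptake, was higher at 1.66 with an adjusted p of 0.00915 and was called on its second probe too at 0.94. Fgf21, a liver hormone, was higher at 1.11 with an adjusted p of 0.0559. Rgs16, a regulator of G protein signalling, had the largest mean of the list at 2.01 but ratios from 0.44 to 4.07, and was not called (adjusted p = 0.102). Arrdc4, a paralogue of Txnip, was at 0.57 and higher on all 4 arrays with an adjusted p of 0.0159, but was under 1.5-fold. Fasn at -0.52 and Elovl6 at -0.55, both of fatty acid synthesis, had adjusted p of 0.0478 and 0.0713 but were under 1.5-fold. Targets of 1 factor in this list thus lay on both sides of 0, with a median of 0.01. The sign of that median was not stable: it was 0.17 without replicate 1, -0.08 without replicate 3 and -0.09 with median centring.

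Genes of the opposing pathway, which makes glucose from pyruvate, had the highest ratios of the lists. G6pc, which releases free glucose, was higher by 3.60 on the log2 scale (limma, adjusted p = 0.00170), and Pck1, which makes phosphoenolpyruvate, by 2.66 (adjusted p = 0.00621). The other 3 of the 5 measured, Fbp1, Pcx and Slc37a4, were between 0.28 and 0.46 and were not called.

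**Figure D5:**
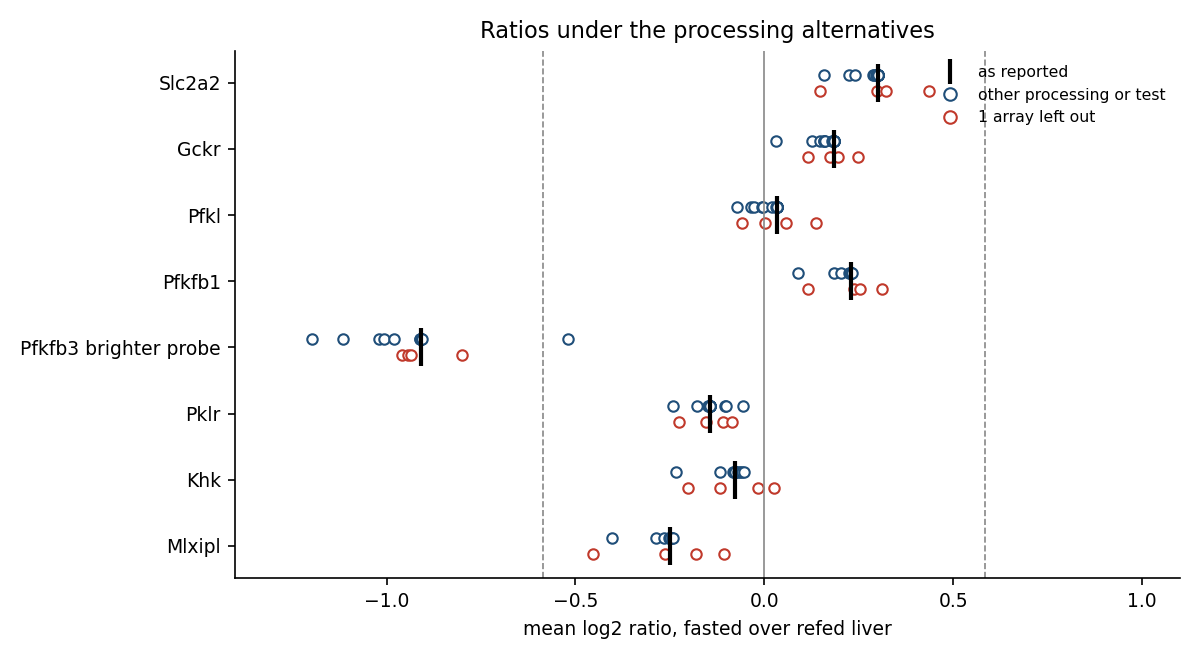
Mean log2 ratio of fasted over refed liver (x axis) for the tested probe of each of the 8 genes (y axis), with a black bar for the value as reported, blue circles for other processing or tests and red circles for fits without 1 array; dashed lines mark 1.5-fold. The Pfkfb3 values run down to -1.20, with 1 at -0.52, apart from all other genes, while Pfkl and Khk have values on both sides of 0.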

How the data were processed

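Expression was measured on 4 two-colour Agilent arrays of 1 slide, with 200 ng of RNA per liver amplified and labelled. The authors deposited scanner files of Feature Extraction 10.10.1.1, whose intensity values are raw pixel medians with local backgrounds and quality flags, and a table of log2 ratios, normalized by loess in limma by the authors, whose background step is not given in the sources used here. The rows of the deposited log2 table were matched to spots by row number. The r was only 0.53 on replicate 1, beside 0.92, 0.94 and 0.95 on replicates 2 to 4. The columns of that table ran as fasted over refed, and their medians were -0.117, -0.081, 0.057 and 0.014.

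Median intensities were processed here with limma 3.58.1 in R 4.3.3. Spots with a local background over 3 times the array's median were left out (55 of 177588), normexp was applied with an offset of 50, ratios were normalized by loess, and spots of a probe were averaged. Probes were tested where at least 1 condition was well above background on each of the 4 arrays, using lmFit and eBayes, two-sided (19719 probes). Levels per liver were set across arrays by Aquantile. Genes with several probes entered the lists by the brightest. Promoter windows were searched with Python 3.11.15.

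The genes, lists and tests were chosen with earlier results of these data known. So was the rule that left out spots by their local background. Named are all 9 member probes, called genes of the lists, the gene farthest from 0 of lists without a call, and the 3 nearest to a called member. Hk2, Pfkp, Eno2, Pgam2, Mlxip, Rgs16, Arrdc4, Rpe, Hba-a1, Fasn, Elovl6, Pfkfb2, Pfkfb4, Pdp1, Fbp1, Pcx and Slc37a4 were named after their values were seen. One gene of the pathway is not reported here. On simulated data with 200 of 19719 probes changed by 1.5 (log2), limma recovered 96%, with 2.54% false calls. The fold limit for a call is 0.585 on the same scale. Recovery at sizes below 1.5 (log2), where all 8 genes lie, was not tested. The alternatives were background, normalization, filters, the dye term, separate channels, a rebuilt SAM with 16 sign flips, the deposited ratios and leaving out each array.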

Additional observations from a re-analysis of the deposited data

Results flagged for a closer look

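Over 25 groups of 4 arrays examined, 2 had 1 array apart from the other 3, and chance flags about 1 in 20 such groups. The ratio of the brighter Pfkfb3 probe was -1.24 on replicate 1 beside -0.84 to -0.76 on the others, so that replicate 1 stood off by 0.839 of the whole range, just past the limit of Dixon's test for 4 samples. Without that array the ratio was -0.80 and still called, with an adjusted p of 0.0145 in limma. For the tested markers of acinar pancreas, replicate 3 had a median ratio of -3.37 while the remaining arrays gave -0.01 to 0.05, which puts replicate 3 off by 0.983 of their whole range.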

How the results depend on the processing

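Under 20 alternatives, the call of Pfkfb3 was lost in 1, normexp fitted on all spots, where its ratio was -0.52 and no member was called (0). The highest SD estimated for the background was 4298 in that fit, against 1.88 in the processing reported above. No other member was called under any alternative that was run. Signs turned for means near 0. Without 1 array, Khk ran from -0.202 to 0.0260 (above 0 without replicate 4) and Pfkl from -0.0592 (without replicate 4) to 0.137. Pfkl was -0.0348 with Agilent's processed signals, -0.00675 with the deposited log2 ratios, -0.0262 with median centring, -0.00393 with no background correction and -0.0713 with normexp on all spots.

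Over all probes, 335 were called higher and 410 lower, and median centring in place of loess gave 230 and 635. Probes called higher and lower were 603 and 997 with Agilent's processed signals, 549 and 713 with subtraction, 935 and 1208 with no fold limit, and 5 and 15 with normexp on all spots. Leaving out 1 array gave 208 (without replicate 3) to 413 higher and 256 (without replicate 3) to 525 lower. Of the genes of the 9 lists, 4 were called higher with no filter on dim probes and 1 with normexp on all spots, and 3 to 6 without 1 array. Lower were 1 to 4 without 1 array, 4 with Agilent's processed signals, 4 with the deposited ratios, 6 with no fold limit and 0 with normexp on all spots. Where no value above shows the cause, the cause was not tested. Signal over background limits Pklr, Pfkl and Pfkfb3. The tested ratios already pair the livers of each array.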
